A study of Homo sapiens with 2 samples.

Results

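Keratin genes were taken as every gene probe present on both arrays whose gene name was KRT followed by a number and at most 1 letter, which leaves out the keratin-associated proteins. This gave 63 probes of 56 gene symbols among 34127 gene probes, and 6 of these genes had more than 1 probe. Total RNA came from MKN74 and MKN45, both established gastric cancer cell lines, harvested 48 hrs after electroporation with 50 nM siRNA. On the 1 two-colour array of each line, RNA of cells given SET7/9 siRNA carried Cy5 and RNA of cells given negative control siRNA carried Cy3, with no dye swap. SET7/9, encoded by SETD7, is a lysine methyltransferase that can mono-methylate histone H3 at lysine 4. With 1 array per cell line no difference within a line has a replicate check, and the number of arrays limits the precision of every value.

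Keratins are the intermediate filament proteins of epithelial cells, and each filament is built from pairs of an acidic type I and a basic type II chain. KRT8 and KRT18, with KRT19, KRT7 and KRT20, are the keratins of simple epithelia such as the gastric and intestinal lining. KRT5 and KRT14 mark the basal layer of stratified squamous epithelia, KRT1 and KRT10 its differentiating layers, and KRT6, KRT16 and KRT17 are known for their induction in wounded or hyperproliferative epidermis. The hair keratins, KRT31 to KRT40 and KRT81 to KRT86, form the hard shaft of hair and nail. Another set, here called inner root sheath for short, belongs to the inner root sheath and companion layer of the follicle.

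The probes lay in the keratin clusters of GRCh37, 32 on chromosome 17, which holds the type I genes, and 31 on chromosome 12, which holds the type II genes and KRT18. Keratin genes within a class are close in sequence, and hybridisation of one transcript to the probe of another cannot be told apart from its own signal. The probe pairs below are those with the most identical bases in an ungapped alignment, and capitals mark the bases that the members of a pair share. The alignment sets probe against probe, so it does not show whether a transcript matches the probe of another gene. Ranking by count leaves out the KRT33A and KRT33B probes, which shared a larger part of a shorter overlap, 30 of 32 bases. Of 43 aligned bases, 34 were shared by KRT6C (chr12:52863651-52864324, minus strand) and KRT75 (chr12:52822220-52822420, minus strand), and 32 by KRT14 (chr17:39740013-39740072, minus strand) and KRT16 (chr17:39767216-39767364, minus strand).
KRT6C: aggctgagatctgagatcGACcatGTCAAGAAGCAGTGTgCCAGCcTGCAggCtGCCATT
KRT75: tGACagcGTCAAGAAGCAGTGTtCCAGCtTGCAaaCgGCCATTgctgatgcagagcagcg
KRT14: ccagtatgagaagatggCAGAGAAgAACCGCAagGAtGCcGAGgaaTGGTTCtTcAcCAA
KRT16: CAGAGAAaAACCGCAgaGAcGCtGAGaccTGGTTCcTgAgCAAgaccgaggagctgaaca

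Values per probe are the processed signal of each channel, after background subtraction and dye normalization by the scanner software, and the log2 ratio of Cy5 to Cy3 with the error that the software estimates for the spot. An array's probe was kept when 50% or more of its spots were well above background in Cy3, in Cy5 or in both. On the arrays, 20674 probes were kept in MKN74 and 22830 in MKN45. Of 2 SETD7 probes, 1 had a log2 ratio of -2.03 in MKN74 and -1.95 in MKN45, and the other was at 0.24 and -0.23. The epithelial markers EPCAM and CDH1 were well above background in both channels of both arrays, whereas 1 of 6 probes of the mesenchymal list was kept in either line.

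Both lines gave signal above background from simple-epithelial keratins and from fewer of the squamous and hair keratins. Of the 63 keratin probes, Cy3 was well above background for 31 in MKN74 and 27 in MKN45, and Cy5 for 39 and 34. Of the 8 simple-epithelial probes, 7 were well above background in Cy3 in either line, and the exception was KRT20, an intestinal keratin. Of the 17 squamous probes, 10 in MKN74 and 11 in MKN45 were well above background in Cy3. Of the 19 hair keratin probes, 7 and 5 were. Of the 9 probes for the inner root sheath, 2 and 1 were. In no channel of either array were 22 probes of 21 genes well above background. These were KRT1, KRT2, KRT12 and KRT76 among squamous keratins, and KRT24, KRT77 and KRT79 among other epithelial keratins. Of the inner root sheath and companion layer they were KRT25, KRT26, KRT27, KRT71, KRT72 and KRT75. Of hair they were KRT33B, KRT35, KRT37, KRT38, KRT40, KRT82 and KRT84, and KRT222 was the remaining gene. The counts were always at least as high in Cy5 as in Cy3, which also held over all probes, where Cy3 passed for 54.7% in MKN74 and 59.7% in MKN45, and Cy5 for 60.4% and 66.6%.

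**Figure D1:**
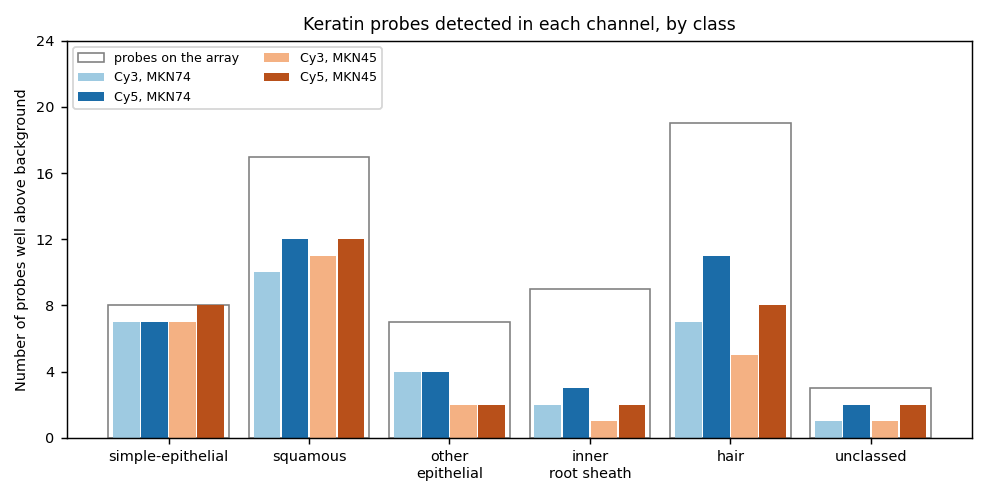
Number of keratin probes well above background (y axis) in each channel of each array, by keratin class (x axis), within an outline that gives the probes on the array. Simple-epithelial probes reached 7 or 8 of 8 in every channel, while hair keratin probes reached 5 to 11 of 19.

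Control cells of the lines differed in several keratins. The Cy3 signals, from negative control siRNA, were scaled across arrays and compared within each probe, where a level above background on 1 array only allows a lower bound. Lower bounds were computed with this scaling only, and how far they depend on it was not tested. Of 23 keratin probes well above background in Cy3 on both arrays, 12 were at least 1.5-fold lower in MKN45 than in MKN74, and 1 was at least 1.5-fold higher. Over all 17414 probes measured in this way, 33.3% passed the cutoff as lower in MKN45 and 23.3% as higher. There was no replicate of either control, so the differences have no test. Of these 13 probes, 12 passed the same cutoff in the same direction in Cy5, in which the same cell lines were measured on the same arrays.

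KRT7, a type II keratin of simple and ductal epithelia, was the 1 probe higher in MKN45. Its Cy3 signal was 1771 in MKN74 and 13620 in MKN45, a scaled difference of 9.03-fold. The other simple-epithelial probes stayed close, with 1 exception. KRT19 had a Cy3 signal of 79370 in MKN74 and 127829 in MKN45, which after scaling was 1.40-fold higher in MKN45. KRT8, the main type II partner of KRT18, had a signal of 41267 and 32749 at the probe at chr12:53291026-53291085, 1.33-fold lower in MKN45 after scaling, and the other 2 KRT8 probes were 1.16-fold and 1.05-fold lower. The KRT8 probe with the smallest of these differences, at chr12:53343241-53343300, lay 48.2 kb from the nearest other KRT8 probe and 2.28 kb from the nearest KRT18 probe on the opposite strand, so its identity as KRT8 is uncertain. The KRT18 probes disagreed, at 1.86-fold lower in MKN45 (75769 and 45138) and 1.21-fold lower (138732 and 135233). With the 75th percentile of each array as the scale, the first KRT18 difference was -0.56 on the log2 scale, under the cutoff, and that of KRT19 was 0.87, past it.

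Of 9 squamous probes well above background in Cy3 on both arrays, 6 were at least 1.5-fold lower in MKN45 and 0 were higher, while bounds from 1 array put 1 more lower and 2 higher in MKN45. KRT14, the type I keratin of basal cells, had a Cy3 signal of 403 in MKN74 and 59.2 in MKN45, 7.46-fold lower in MKN45 after scaling. KRT17, a keratin of stressed epidermis and appendages, had 450.0 and 63.5, a 7.70-fold difference in the same direction. KRT16 was 3.39-fold lower and KRT6A 4.26-fold lower in MKN45. KRT9 was 2.55-fold and KRT6C 1.90-fold lower, differences of -1.35 and -0.92 on the log2 scale. With normexp, loess and the same scaling these were -0.51 and -0.34, under the cutoff, and with the 75th percentile as the scale -0.63 and -0.16. KRT13, a keratin of non-cornified squamous epithelia, was at least 10.1-fold lower in MKN45, where its probe was not well above background. By contrast, KRT5, the type II partner of KRT14, was at least 5.64-fold higher in MKN45, with signals of 18.1 in MKN74 and 139.7 in MKN45. KRT6B was at least 13.8-fold higher in MKN45. KRT10, KRT15 and KRT3 lay within 1.5-fold between the lines. With normexp, loess and the same scaling, KRT14, KRT17, KRT16 and KRT6A were still lower in MKN45, by smaller log2 differences of -1.99, -1.98, -0.78 and -1.24 in place of -2.90, -2.94, -1.76 and -2.09.

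Hair keratins and KRT23 were lower in MKN45 wherever a difference or a bound passed 1.5-fold. KRT81, a type II hair keratin, had a Cy3 signal of 62315 in MKN74 and 3073 in MKN45, 19.6-fold lower after scaling, and KRT86 had 734 and 68.2, 11.1-fold lower (a log2 difference of -3.47, and -2.59 with normexp, loess and the same scaling). The 2 probes of KRT83 disagreed in size, as 1 was 4.73-fold lower, with signals of 10109 and 1802, and the other was at least 121-fold lower, with a signal of 1601 in MKN74 and none well above background in MKN45. KRT23, a type I keratin, had 6784 in MKN74 at 1 probe and 890 at the other, and neither was well above background in MKN45, which gives at least 505-fold and at least 67.6-fold. KRT85 was 1.97-fold lower, and under the cutoff with either alternative scaling (log2 differences of -0.37 and -0.41). KRT28, of the inner root sheath, was at least 16.1-fold lower in MKN45. KRT80 had signals of 5445 and 1341, 3.28-fold lower in MKN45 (a log2 difference of -1.71). With the 75th percentile as the scale this was -1.84, and with normexp, loess and the same scaling -1.65. KRT34 and KRT36 were at least 5.32-fold and at least 2.57-fold lower in MKN45. Their Cy3 signals in MKN74 were 59.4 and 24.9, and the bounds hold for the scaling used only. That scaling put KRT31 at 1.59-fold lower in MKN45, although its Cy3 signal was 18.6 on both arrays. The KRT31 signal was not well above background in MKN74. The probes of KRT42P disagreed, as 1 was at least 8.56-fold lower in MKN45 and the other at least 1.22-fold higher. KRT81, KRT83 and KRT86 are close in sequence, and whether one transcript reached the probes of the others was not tested.

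**Figure D2:**
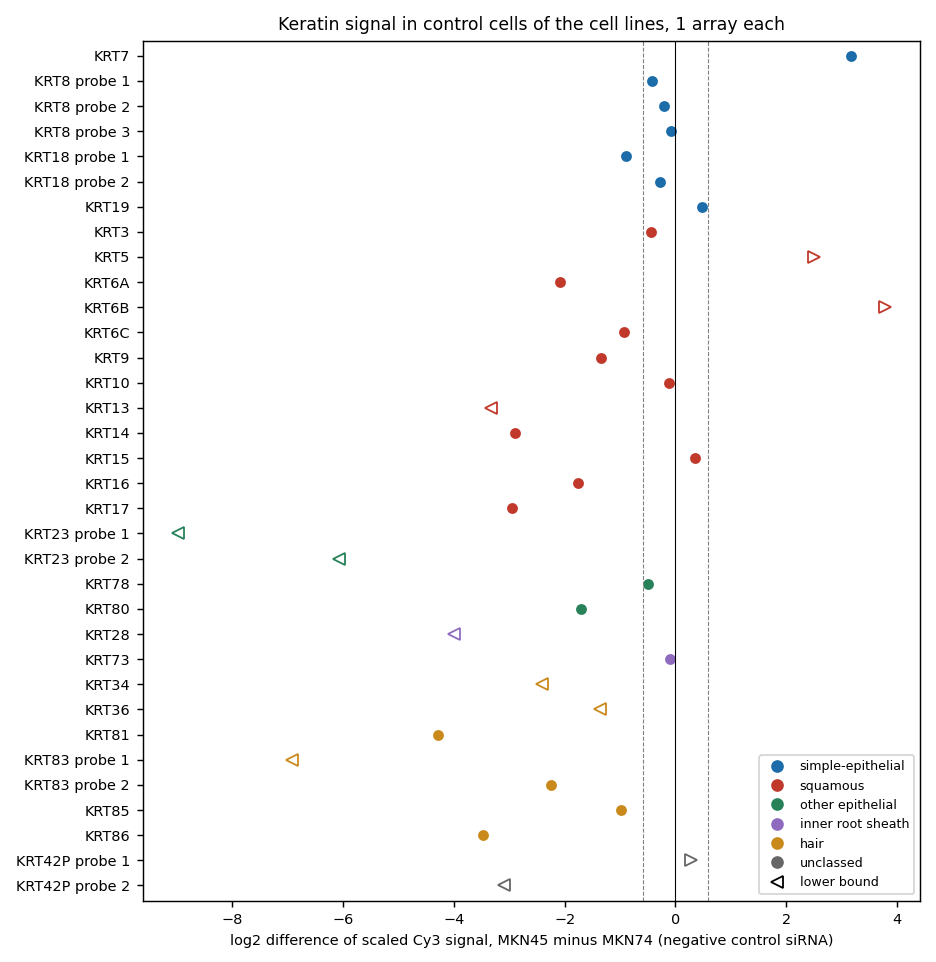
Log2 difference of the scaled Cy3 signal in negative control cells, MKN45 minus MKN74 (x axis), for each keratin probe measured on both arrays (dots) or on 1 array as a lower bound (open triangles), coloured by class, with dashed lines at 1.5-fold. KRT7, KRT5 and KRT6B lie far to the right, and KRT81, KRT83, KRT23, KRT14 and KRT17 far to the left.

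The second question was how keratin RNA differed between SET7/9 siRNA and negative control siRNA within each line. In MKN74, 5 of 39 kept keratin probes were at least 1.5-fold higher and 1 was at least 1.5-fold lower, where 3.78% and 1.76% of all kept probes were. In MKN45, 5 of 34 were at least 1.5-fold higher and 2 at least 1.5-fold lower, against 4.81% and 1.97%. Of the higher probes, 4 of 5 in MKN74 and 5 of 5 in MKN45 had a Cy3 signal not well above background. With both channels well above background, 1 of 31 keratin probes was higher and 1 lower in MKN74 (0.64% and 1.45% of all such probes), and 0 of 27 were higher and 2 lower in MKN45 (0.814% and 1.62%). The median log2 ratio of kept keratin probes was 0.10 in MKN74 and -0.02 in MKN45, beside 0.01 in both lines for all kept probes.

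**Figure D3:**
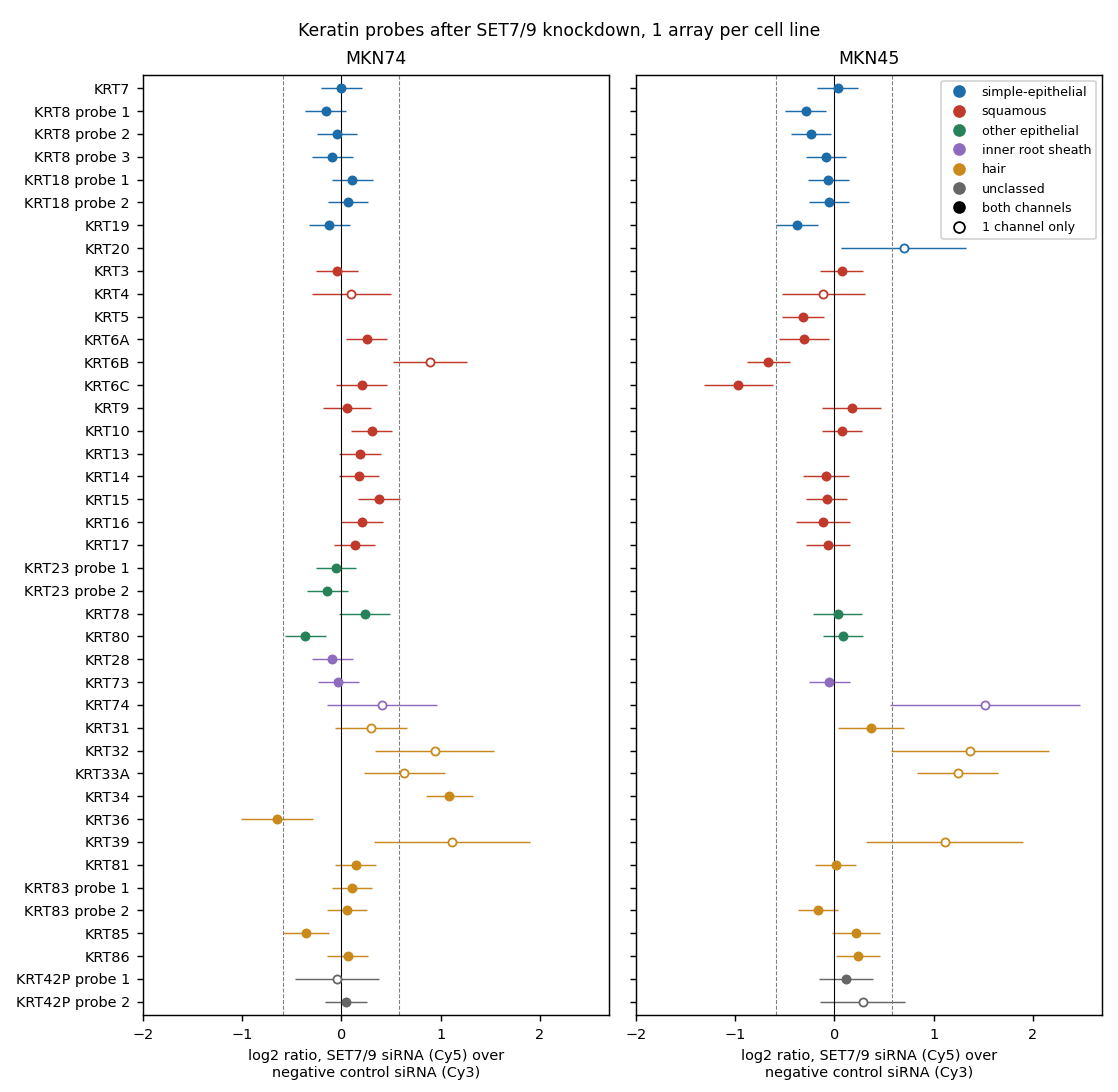
Log2 ratio of SET7/9 siRNA over negative control siRNA (x axis) for each keratin probe kept on the array of MKN74 (left) or MKN45 (right), with the error of the scanner software as bars, filled where both channels and open where 1 channel was well above background. Dashed lines are at 1.5-fold, and with both channels only KRT34 and KRT36 in MKN74 and KRT6B and KRT6C in MKN45 lie beyond them.

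The simple-epithelial keratins stayed within the cutoff wherever both channels were measured. The 7 probes had a median log2 ratio of -0.04 in MKN74 and -0.08 in MKN45, and ranged from -0.16 to 0.11 and from -0.38 to 0.03. KRT19, a type I keratin that can pair with KRT8, had Cy3 and Cy5 signals of 79370 and 72990 in MKN74 and of 127829 and 98535 in MKN45. Its log2 ratio was -0.12 (error 0.20) and -0.38 (error 0.21). KRT8 at chr12:53291026-53291085 had a ratio of -0.16 in MKN74 (error 0.20) and of -0.29 in MKN45 (error 0.21), and all 3 KRT8 probes were below 0 in both lines. KRT18 was at 0.11 and 0.06 in MKN74 and at -0.06 at both probes in MKN45. KRT7 was at 0.00 and 0.03, although its signal differed between the lines. KRT20 was kept in MKN45 only, with a Cy3 signal of 8.75, not well above background, and a Cy5 signal of 14.2, a ratio of 0.70 (error 0.63) for which no lower bound above 1-fold could be given.

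Squamous keratin ratios lay mostly above 0 in MKN74, while in MKN45 their signs were nearer the share over all probes. Of 9 squamous probes measured in every channel, 8 were above 0 in MKN74 and 6 below 0 in MKN45, with medians of 0.21 and -0.08. Over the 17362 probes of all genes measured in this way, 48.9% were above 0 in MKN74 and 49.5% in MKN45. With 9 probes, the MKN45 count lies near that share. Some of the 9 are close in sequence, so their directions are not separate observations. KRT15, a type I keratin of basal cells, had a ratio of 0.38 in MKN74 (error 0.21) and of -0.08 in MKN45 (error 0.20), and KRT10 was at 0.31 and 0.08. KRT14, KRT16 and KRT17 were at 0.18, 0.21 and 0.13 in MKN74 and at -0.08, -0.11 and -0.06 in MKN45. KRT9 and KRT3 were at 0.06 and -0.04 in MKN74 and at 0.17 and 0.07 in MKN45, and KRT13 was at 0.19 in MKN74. None of these passed the cutoff, and most lay within about 1 software error of 0.

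The KRT6 genes, type II keratins known for their induction in wounded epidermis, included 2 probes, KRT6B and KRT6C, past the cutoff in MKN45 and of opposite sign in MKN74. KRT6B (chr12:52840556-52840615) had a Cy3 signal of 16.1, not well above background, and a Cy5 signal of 29.9 in MKN74, and 299.7 and 189.1 in MKN45. Its lower bound in MKN74 was 1.68-fold higher with SET7/9 siRNA (log2 ratio 0.89, error 0.38), without allowance for that error. Its ratio in MKN45 was -0.66 (error 0.21). KRT6C had 38.2 and 44.1 in MKN74, a ratio of 0.21 (error 0.26), and 30.2 and 15.4 in MKN45, a ratio of -0.97 (error 0.35). KRT6A (chr12:52881087-52881146) had 207.9 and 247.8 in MKN74 and 57.2 and 46.2 in MKN45, with ratios of 0.25 and -0.31, short of the cutoff in both. KRT5, measured in both channels in MKN45 only, was at -0.31 (error 0.21) there. After normexp background correction and loess normalization KRT6B and KRT6C in MKN45 were at -0.50 and -0.21, no longer past the cutoff, and KRT6B in MKN74 was at 0.22. The KRT6 genes are close in sequence, and whether one transcript reached the probes of the others was not tested.

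Among hair keratins, KRT34 and KRT36, both type I, passed the cutoff in MKN74 with both channels well above background. KRT34 (chr17:39534018-39534077) was printed 10 times, and its 10 spots in MKN74 had Cy3 signals from 51.1 to 65.0 and Cy5 signals from 120.1 to 131.3, which did not overlap. Their log2 ratios ran from 0.91 to 1.24 with an SD of 0.10, and the probe mean was 1.09 (error 0.24). In MKN45 none of its spots was well above background in either channel. The repeated spots share 1 labelled RNA, so their SD covers variation within the array only. With normexp and loess the ratio was 0.68, still past the cutoff. KRT36 (chr17:39643957-39644521) had 24.9 in Cy3 and 15.9 in Cy5 in MKN74, a ratio of -0.65 (error 0.36), and -0.17 with normexp and loess. It was not well above background in MKN45.

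KRT32, KRT33A and KRT39 were past the cutoff upward in both lines, each with Cy3 not well above background. All 3 were kept through Cy5 alone, a filter that favours ratios above 0, so their shared direction is no separate evidence. KRT39 was at 1.11 in either line (error 0.79 in each), and KRT32 at 0.94 (error 0.60) and 1.36 (error 0.80). For KRT39 and KRT32 no lower bound above 1-fold could be given in either line. KRT33A was at 0.63 in MKN74 and 1.24 in MKN45 (error 0.41 in each). Its lower bound in MKN45 was 1.81-fold, and it was the 1 of these 3 probes with a bound above the cutoff. KRT74, of the inner root sheath, was at 1.52 (error 0.96) in MKN45 with a Cy3 signal of 3.51. All 4 were at 0.21 or less on the log2 scale in both lines with normexp and loess. KRT31, measured in both channels in MKN45 only, was at 0.30 in MKN74 and 0.37 in MKN45, short of the cutoff. Of the brighter hair keratins, KRT81 was at 0.14 and 0.01, KRT86 at 0.06 and 0.24, and the KRT83 probe measured in both lines at 0.06 and -0.16, all within 1.5-fold. KRT80, a type II keratin, had a ratio of -0.36 in MKN74 (error 0.21) and of 0.09 in MKN45 (error 0.20), and KRT23 was at -0.05 and -0.14 in MKN74. KRT78 was at 0.23 and 0.03, KRT73 at -0.03 and -0.05, KRT85 at -0.35 and 0.22, and KRT28 at -0.09 in MKN74. KRT4 was at 0.10 and -0.11 with Cy3 not well above background in either line, and the probes of KRT42P, a pseudogene, were between -0.04 and 0.29.

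**Figure D4:**
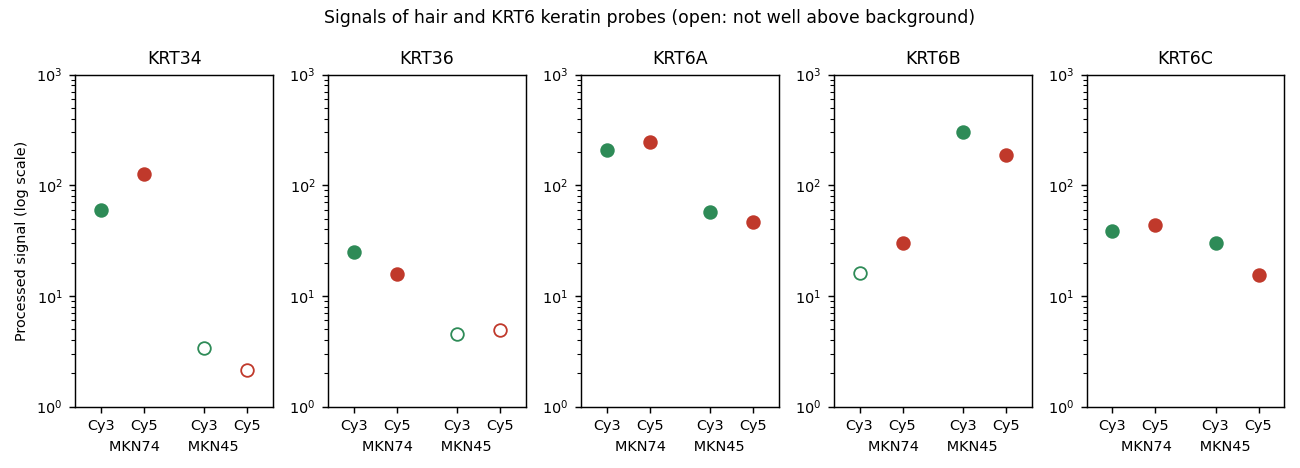
Processed signal on a log scale (y axis) in Cy3 (negative control siRNA, green) and Cy5 (SET7/9 siRNA, red) on each array (x axis) for 5 probes, open where not well above background. KRT34 is higher in Cy5 in MKN74 only, and KRT6B and KRT6C are lower in Cy5 in MKN45.

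In a limma fit of both arrays against 0, which leaves 1 residual degree of freedom, 0 of 32 keratin probes kept on both arrays had a Benjamini-Hochberg adjusted p under 0.05, and 5 had an unadjusted p under it. Of all 19595 probes 0 were called (0%), and 2569 had an unadjusted p under 0.05. The lowest adjusted p of a keratin in limma was 0.255, for KRT39, with a mean log2 ratio of 1.11 (95% interval 0.91 to 1.32). That interval leaves out the software error, which was 0.79 on each array, and no lower bound above 1-fold could be given for KRT39. The other 4, KRT32, KRT33A, KRT31 and KRT74, were also higher on both arrays, and every one of the 5 had Cy3 not well above background on at least 1 array. All but KRT31 were kept through Cy5 alone on both arrays, and such a filter favours ratios above 0. As Cy5 was always the SET7/9 siRNA channel, a dye bias of a probe and a response to the siRNA cannot be told apart.

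Genes that work with keratins were read by the same cutoff. The lists held desmosome and plakin genes, which anchor keratin filaments, other intermediate filaments, envelope genes of the keratinocyte and transcription factors or other regulators of keratin genes. Of 51 kept probes in MKN74, 2 were at least 1.5-fold higher and 1 lower, and of 54 in MKN45, 0 were higher and 1 lower. Among all kept probes 3.78% and 1.76% passed in MKN74 and 4.81% and 1.97% in MKN45, so these counts, other than the 0, lie near the background. The 2 higher, DST at 1.01 and INA at 0.62, had Cy3 not well above background. Another DST probe, with both channels well above background in MKN74 (145.9 and 143.3), was at -0.03. The remaining DST probe was not well above background in either channel there. With both channels well above background, IVL, an envelope protein of keratinocytes, was at -0.61 (error 0.42) in MKN74 with signals of 20.2 and 13.2, and GRHL1, a grainyhead transcription factor, was at -1.07 (error 0.32) in MKN45 with 39.1 and 18.7. The second GRHL1 probe was at -0.24 there, short of the cutoff. With normexp and loess IVL was at -0.17 and the first GRHL1 probe at -0.31, and neither passed. DSP, the desmoplakin that ties keratin filaments to desmosomes, was at -0.21 and -0.28 in MKN74 and at -0.18 and -0.09 in MKN45. JUP, or plakoglobin, was at -0.15 and 0.03, and PLEC, or plectin, at -0.03 and -0.03 at its brighter probe. VIM, the intermediate filament of mesenchymal cells, was not well above background in MKN74 and was at -0.48 (error 0.33) in MKN45 with a Cy3 signal of 29.7. TP63, a regulator of the squamous programme, was not well above background in any channel.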

How the data were processed

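Two-colour Agilent arrays measured total RNA of MKN74 and MKN45, 1 array per line. The authors deposited Agilent Feature Extraction 10.7.3.1 output, with intensity per channel and the log10 ratio (red over green) and its error, after background subtraction, surrogate values for dim signals and dye normalization. A second table that the authors deposited holds log2 ratios. Here ratios were converted to log2, spots that were controls or outliers were dropped, and repeated spots were averaged. Each array had 43118 gene spots, 99 of them keratin spots (1 of these an outlier in MKN74, 4 in MKN45, 0 saturated). Lower bounds used channels scaled by Aquantile (limma 3.58.1, R 4.3.3), raising a dim probe to the array's lowest well-above-background signal in that dye where it fell under it, and are open to dye bias. They carry no allowance for the software error of a spot. Control levels were compared on the same scale. On simulated data for the fit of both lines, 19595 probes with 200 of them changed, limma recovered 100%. Of its calls, 2.91% were false. Every changed probe was given the same shift, many times the common SD of the simulated noise. The simulation therefore checks that the steps run and does not measure the power of the fit on these arrays. Of the keratin accessions, 60 of 63 matched the RefSeq table, used for names only. Coordinates are GRCh37, from the array files. Tables were made with Python 3.11.15.

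The named genes are every simple-epithelial keratin probe, other keratin probes well above background in both channels on at least 1 array, keratin probes at least 1.5-fold changed, partner genes changed with both channels, and DSP, JUP, PLEC and VIM. DST, INA, TP63, KRT4 and keratins in no channel are named outside this rule, after their values were seen. The members and lists were chosen with earlier results of these data known. Alternatives covered background correction, normalization, filters, cutoff and source of values. Sequences of other keratin probes are not reported here.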

Additional observations from a re-analysis of the deposited data

Results flagged for a closer look

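The knockdown log2 ratio had opposite signs on the arrays of the cell lines for 2 probes past the cutoff on at least 1 of them. KRT6C differed by -1.17 (MKN45 minus MKN74), with ratios of 0.21 and -0.97, and KRT6B by -1.56, with ratios of 0.89 and -0.66. The KRT6C ratio in MKN74 was smaller than its software error of 0.26. With normexp and loess the ratios were 0.13 and -0.21 for KRT6C and 0.22 and -0.50 for KRT6B, none past the cutoff. With 1 array per line the difference between lines was not tested, and the Cy3 signal of KRT6B was not well above background in MKN74.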

How the results depend on the processing

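Each log2 ratio already pairs SET7/9 siRNA with negative control siRNA of the same line on 1 array, and the limma fit used these ratios. No further pairing or replication within a line was possible, because each cell line has 1 array and the labels give no replicate numbers. Leaving out an array was not run, since the fit then has no residual degree of freedom. Keratin probes at least 1.5-fold higher in MKN74 (5) numbered 1 with normexp and loess, in the deposited table and with both channels well above background, and 2 at a 2-fold cutoff; those lower (1) numbered 0 with normexp and loess and at 2-fold, and 4 with no filter. In MKN45 the higher probes (5) numbered 0 with normexp and loess, in the deposited table and with both channels, and 9 with no filter, and the lower probes (2) numbered 0 with normexp and loess and at 2-fold and 5 with no filter. Partner probes higher in MKN74 (2) numbered 0 with normexp and loess, in the deposited table and with both channels, and 1 at 2-fold, and those lower (1) numbered 0 with normexp and loess and at 2-fold and 4 with no filter. In MKN45 partner probes higher (0) numbered 3 with no filter, and those lower (1) numbered 0 with normexp and loess and 5 with no filter. The hair keratin median in MKN45 (0.30) was 0.013 with no filter. Keratin probes with Cy3 at least 1.5-fold higher in MKN45 (1) numbered 2 with 75th percentile scaling. Those at least 1.5-fold lower in MKN45 (12) numbered 9 with that scaling and 9 with normexp, loess and Aquantile. The cause of these changes was not tested, except that some follow by construction. Requiring both channels, leaving out the filter or taking the deposited table changes which probes enter. The deposited table gave no value for the single-channel keratin calls. The normexp correction added an offset of 50 to each signal, which draws the ratio of a dim probe toward 0. How much of each change came from the offset was not tested. No log2 ratio past the cutoff, of a keratin or of the 4 partner probes DST, INA, IVL and GRHL1, changed sign in the alternatives that gave it a value. The limma count of keratins was 0 under every alternative run, although 1558 probes of all genes were called with normexp and loess. Spots of low signal limit most of these calls, as all the single-channel calls rest on 1 signal near background.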
